A study of Rattus norvegicus with 6 samples.

Results

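The genes described here are 10 acute-phase and STAT3 target genes (Osmr, Stat3, Cebpd, Pim1, Socs3, Cish, Hp, Lbp, A2m and Chi3l1), picked by symbol from the 17833 genes of a bulk RNA-seq table of rat pulmonary veins (PVs). All 10 symbols were found. They were chosen with the difference between the banded and sham-operated animals of these libraries already known, so that the levels of the 10 genes are given as a description, without a p-value. For these genes the number past each threshold is printed once, beside the share of all genes. Test results are given for the other genes of the pathway, whose lists were also chosen with earlier results of these data known.

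The libraries came from wild-type SD rats that underwent surgery at postnatal day 1 and were killed at postnatal day 21. In the bilateral pulmonary vein banding (BPVB) group (n = 3 rats) the veins were constricted, and the sham group (n = 3 rats) had the same operation with no band left in place. The PV of the upper right lobe was used whole, with its smooth muscle, endothelium, adventitia and myocardial sleeve, so the values average over these cells. Sex and litter are not given in the sources used here.

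STAT3 is a transcription factor that sits latent in the cytoplasm until a Janus kinase (JAK), bound to a cytokine receptor, phosphorylates it. Cytokines of the interleukin-6 (IL-6) family reach it through receptors that share the gp130 chain, encoded by Il6st, and oncostatin M uses gp130 paired with the receptor encoded by Osmr. Activated STAT3 induces genes of the acute-phase response, the set of plasma proteins that the liver and, at lower levels, other tissues release in inflammation, and it also induces its own inhibitor Socs3, which closes a negative feedback loop. Cish, an inhibitor of the same protein family, is best known as a target of the related factor STAT5.

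A promoter sequence was available for 6 of the 10 genes (Socs3, Cish, Stat3, Osmr, Pim1 and Chi3l1) from RefSeq on build GRCr8, and the 250 bases before the annotated start were searched for the STAT motif TTCNNNGAA, which reads the same on both strands. Cish had 4 matches and the other 5 genes had 0. The Cish window is printed because it carries all the matches, with the 4 motifs in capitals. It lies on the plus strand at chr8:116850719-116850968.
Cish: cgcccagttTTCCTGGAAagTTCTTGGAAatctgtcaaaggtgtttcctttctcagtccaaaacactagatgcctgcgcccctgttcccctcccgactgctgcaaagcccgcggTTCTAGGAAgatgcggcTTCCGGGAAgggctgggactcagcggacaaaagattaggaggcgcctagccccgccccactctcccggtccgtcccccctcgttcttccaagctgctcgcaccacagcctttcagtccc
The motifs begin 241, 230, 136 and 119 bases before the start, and the first and the fourth also match the stricter form TTCCNGGAA, which lies within the first form. Of 33469 promoter windows of the same length, 7.67% held at least 1 match to TTCNNNGAA, 7 windows held 3 or more and 2 held 4. The stricter form was found in 1.07% of the windows. None of the 6 windows held the C/EBP motif TTGCNNAA on either strand, which 9.22% of all windows held. A match is a description of the letters and not of binding. The windows of Socs3, Stat3 and Osmr overlapped the span of their own gene, since RefSeq lists transcripts that start further upstream. For these genes the count of 0 therefore does not cover all of the 250 bases before their most upstream start.

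FPKM, the unit of the deposited values, is the number of fragments scaled to the length of the gene and to the fragments counted in the library, so that levels can be set side by side between genes. The libraries held between 23324220 and 29583436 fragments on the listed genes. The tests used limma on log2(FPKM + 0.5) for the 15150 genes that averaged 0.1 FPKM or more across the 6 libraries, with a Benjamini-Hochberg adjusted p under 0.05 as the threshold, and every log2 fold change below is on this scale, BPVB over sham. By this threshold 31.5% of the tested genes were called, 17.2% higher and 14.3% lower in the BPVB group. These are 2605 and 2170 genes, and with median-of-ratios scaling the balance turned to 2362 higher and 2454 lower. Of the 10 genes, A2m was under the filter on low expression and 9 entered the fit, of which 6 were called higher and 2 lower. With an absolute log2 fold change above 1 as a further condition, the share of all tested genes was 3.27% (2.24% higher and 1.03% lower), and 1 of the 9 passed in each direction, Chi3l1 and Socs3. In 8 of the 9 genes, all BPVB values lay on one side of all sham values, which held for 45.6% of all tested genes. Since the 10 genes were chosen on this contrast, nothing is read from these counts.

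In the sham veins the order of the mean levels was Stat3, Lbp, Cebpd, Socs3, Cish, Osmr, Pim1, Hp, Chi3l1 and A2m. The ranges of neighbours overlapped for Osmr and Pim1 and for Hp and Chi3l1, and all other neighbours lay apart. In the BPVB veins Stat3, Lbp and Cebpd still led, and Socs3 moved from rank 4 to rank 9. Chi3l1 moved from rank 9 to rank 5, level with Osmr. The ranges of neighbours in the BPVB group overlapped for Lbp and Cebpd, Osmr and Chi3l1, Pim1 and Cish, and Hp and Socs3.

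**Figure D1:**
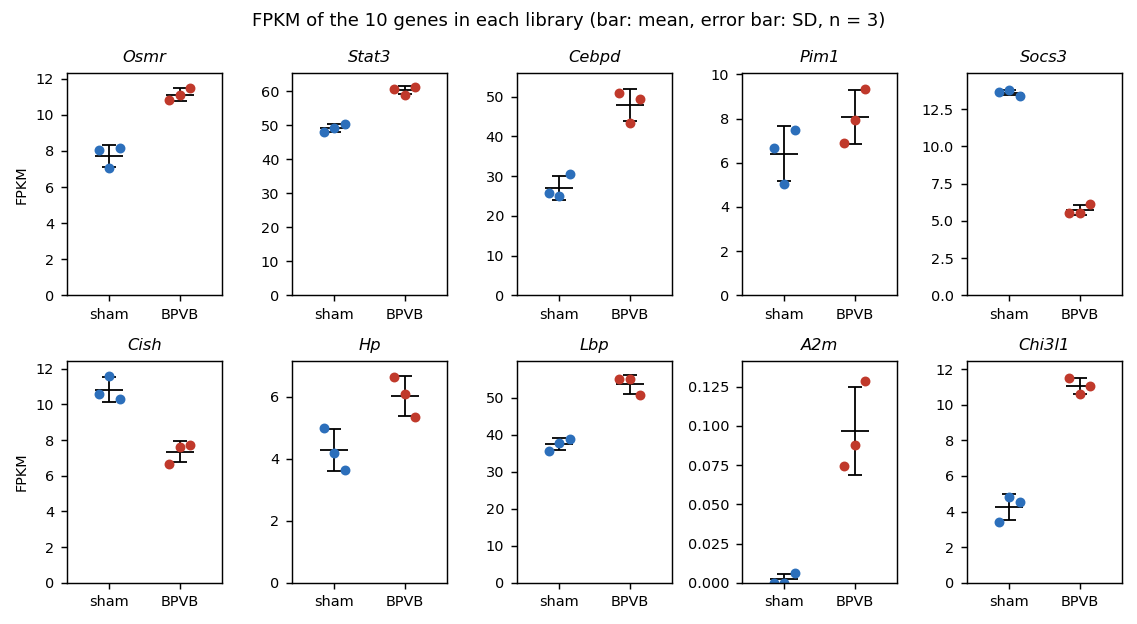
FPKM (linear axes from 0, each with its own scale) of the 10 genes in each library, with points for libraries, a bar for the mean and an error bar for the SD (n = 3 rats per group). Socs3 and Cish lay lower in the BPVB group, Pim1 overlapped between the groups, and the other 7 genes lay higher in every BPVB library than in any sham library.

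Osmr, the signalling receptor chain for oncostatin M, had an FPKM of 10.8, 11.1 and 11.5 in the BPVB libraries, against 8.04, 7.04 and 8.15 in the sham libraries. The groups did not overlap, and the mean was 11.1 ± 0.348 against 7.74 ± 0.608 (SD, n = 3 each), a ratio of 1.44 and a log2 fold change of 0.50 (standard error 0.07).
Stat3, the transcription factor itself, had the highest level of the 10, with 60.7, 59.0 and 61.3 FPKM in the BPVB libraries, against 48.0, 49.3 and 50.2 in the sham libraries. Its libraries were the closest to each other of the 10 genes in the BPVB group, with a coefficient of variation of 1.94%. The ratio of the means was 1.23 (log2 fold change 0.29, standard error 0.04). In bulk tissue a higher level may come from more cells of a type or from more RNA per cell, and these cannot be told apart.

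Cebpd, which encodes the transcription factor C/EBP delta that acts with STAT3 at acute-phase promoters, had an FPKM of 50.8, 43.4 and 49.4 in the BPVB libraries, against 25.7, 25.1 and 30.6 in the sham libraries. The lowest BPVB library was well above the highest sham library, and the mean was 1.76 times as high (log2 fold change 0.81, standard error 0.08).
Pim1, a serine/threonine kinase that promotes survival and is induced by STAT3 and STAT5, had 6.91, 7.92 and 9.35 FPKM in the BPVB libraries, against 6.69, 5.05 and 7.48 in the sham libraries. Sham replicate 3 lay above BPVB replicate 1, so that the groups overlapped. The mean was 8.06 ± 1.23 against 6.40 ± 1.24 (SD, n = 3 each). Its log2 fold change of 0.32 (standard error 0.15) was 0.17 without sham replicate 2 and 0.43 without sham replicate 3.

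The pair of feedback inhibitors went the other way. Socs3, which binds gp130 and JAK and ends the signal of IL-6, had an FPKM of 5.53, 5.55 and 6.13 in the BPVB libraries, against 13.6, 13.8 and 13.4 in the sham libraries. The mean was 5.74 ± 0.342 against 13.6 ± 0.178 (SD, n = 3 each), so that the sham group was 2.37 times as high. Its log2 fold change was -1.18 (standard error 0.07), the lowest of the 9 in the fit, and lay between -1.22 and -1.15 with each library omitted once.
Cish, which limits STAT5 signalling and whose promoter is printed above, had an FPKM of 6.68, 7.62 and 7.73 in the BPVB libraries, against 10.6, 11.6 and 10.3 in the sham libraries. All BPVB libraries were lower than all sham libraries. The sham mean was 1.48 times the BPVB mean (log2 fold change -0.53, standard error 0.08).

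The RNA levels of the genes for secreted proteins were higher in the BPVB veins, with ratios that differed widely. Hp, which encodes the haemoglobin-binding protein haptoglobin, had an FPKM of 6.64, 6.09 and 5.34 in the BPVB libraries, against 4.99, 4.17 and 3.65 in the sham libraries. The lowest BPVB value was close to the highest sham value, and the ratio of the means was 1.41 (log2 fold change 0.46, standard error 0.12).
Lbp, which encodes the lipopolysaccharide-binding protein that hands endotoxin to CD14, had 55.0, 55.1 and 50.7 FPKM in the BPVB libraries, against 35.7, 37.8 and 38.8 in the sham libraries. Its ratio of 1.43 (log2 fold change 0.51, standard error 0.05) was near that of Hp, at a mean level of 53.6 FPKM against 6.02 FPKM for Hp in the BPVB group.
Chi3l1, a chitinase-like glycoprotein released by macrophages, epithelium and other cells in inflammation, had 11.5, 10.6 and 11.0 FPKM in the BPVB libraries, against 3.41, 4.79 and 4.53 in the sham libraries. The BPVB mean was 2.60 times the sham mean, and the log2 fold change of 1.29 (standard error 0.12) was the highest of the 9 genes in the fit.

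A2m, which encodes alpha-2-macroglobulin, the protease inhibitor that is the classical major acute-phase protein of the rat liver, was near 0 in these veins. Its FPKM was 0.0743, 0.0878 and 0.128 in the BPVB libraries, whereas sham replicates 1 and 2 were at 0 and sham replicate 3 at 0.00641. The whole-number steps of the FPKM gave 13, 15 and 25 fragments in the BPVB libraries, against 0, 0 and 1 in the sham libraries. Over each group the ratio of fragments per library total was 45.6 (exact 95% interval 7.84 to 1836). This interval covers counting error only, and A2m took no part in the fit. The related A2m family gene Mug1 was also under the filter, with 9, 12 and 15 fragments in the BPVB libraries, against 7, 3 and 4 in the sham libraries.

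The next question was whether the ligands, receptors and kinases upstream of STAT3 differed between the groups. Of 10 genes for IL-6 family ligands, 9 were in the table and 7 were tested, of which 1 rose and 0 fell. The median log2 fold change of the 7 was 0.34, against 0.02 over all tested genes. Of all tested genes, 17.2% rose and 14.3% fell, and the counts of this and every later list stand beside these shares. All lists were chosen with earlier results of these data known, so nothing is read from their counts. The gene that rose was Il6, with 9, 5 and 18 fragments in the BPVB libraries, against 2, 1 and 1 in the sham libraries (log2 fold change 0.61, standard error 0.19, adjusted p = 0.035, limma). The ratio of fragments per library total was 6.89 (exact 95% interval 2.44 to 26.8, which covers counting error in the pooled fragments and not the spread between rats). Its call was lost without BPVB replicate 1, without BPVB replicate 3 and without any of the 3 sham libraries. With limma-voom on the fragments, Il6 had a log2 fold change of 2.29 and also missed the threshold (adjusted p = 0.12), while the ligand gene Clcf1 passed it there (log2 fold change 1.49, adjusted p = 0.031) and not on log2(FPKM + 0.5) (0.63, adjusted p = 0.073). Without BPVB replicate 2 the list held 2 called genes.
Osm, which encodes oncostatin M, was under the filter, with 6, 15 and 5 fragments in the BPVB libraries, against 2, 1 and 1 in the sham libraries. Lif had an FPKM of 0.568, 0.555 and 0.428 against 0.147, 0.401 and 0.351 and did not pass the threshold (adjusted p = 0.14, limma). For Il11, 0.192, 0.210 and 0.197 FPKM in the BPVB libraries stood within the sham values of 0.0615, 0.281 and 0.246 (adjusted p = 0.94, limma). All 4 of these ligand genes stayed under 1 FPKM in every library.

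Of 12 genes for receptors that can activate STAT3 (Osmr not among them), 11 were tested, 3 rose and 0 fell. Of all tested genes, 17.2% rose and 14.3% fell. The median log2 fold change of the list was 0.18. Il6st, the gp130 chain, had an FPKM of 109, 108 and 109 in the BPVB libraries, against 86.8, 88.6 and 87.0 in the sham libraries. It rose by 0.31 on the log2 scale (standard error 0.03, adjusted p = 5.4e-05, limma), close to the value of Stat3. Il11ra1, which pairs with gp130 to bind IL-11, rose by 0.41 (adjusted p = 1.6e-04) and Il10ra, a chain of the IL-10 receptor of leukocytes, by 0.65 (adjusted p = 0.014). The ligand-binding chain Il6r (log2 fold change -0.07, standard error 0.12) and the LIF receptor gene Lifr (-0.02, standard error 0.07) did not pass the threshold.

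Among 10 genes for the JAK kinases and the other STATs, 2 rose and 0 fell, where 17.2% of all tested genes rose and 14.3% fell. The median was 0.15. Both that rose were JAK kinases. The other JAK kinase genes, Tyk2 (log2 fold change -0.04, standard error 0.11) and Jak3 (0.27, standard error 0.13), did not pass the threshold. Jak2 had an FPKM of 17.8, 18.2 and 17.0 in the BPVB libraries, against 10.5, 11.0 and 11.5 in the sham libraries, and rose by 0.66 (standard error 0.06, adjusted p = 5.1e-05, limma). Jak1 rose by 0.19 (adjusted p = 0.0043). Stat5a had a log2 fold change of -0.21 (standard error 0.09) and Stat5b of -0.05 (standard error 0.05), and neither passed the threshold. The difference between these genes and Stat3 was not tested.

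**Figure D2:**
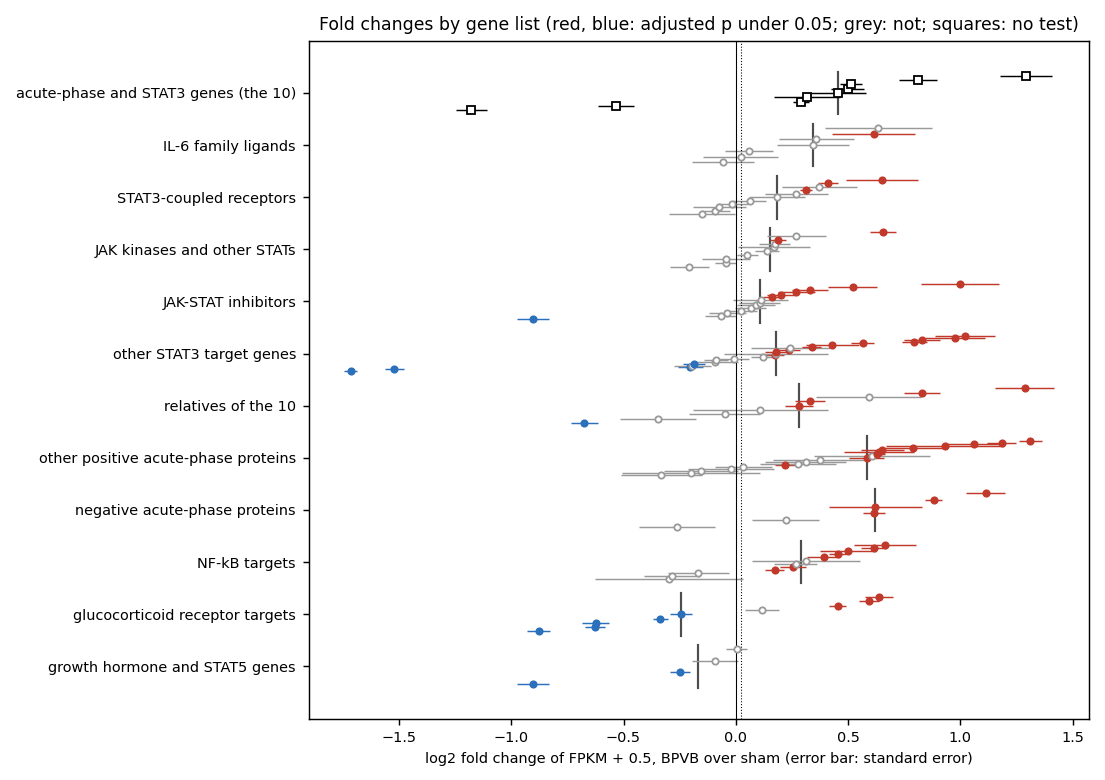
Log2 fold change of FPKM + 0.5 (x axis, BPVB over sham, error bar: standard error) for each tested gene of the 10 and of 11 related lists (y axis), with a vertical bar at the median of each list and a dotted line at the median of all tested genes (0.02). Red and blue points passed the adjusted p, grey ones did not, and the squares of the 10 genes carry no test. The lowest points among the other lists are Fos (-1.72) and Junb (-1.52). The positive and the negative acute-phase lists both lie to the right, at medians of 0.58 and 0.62.

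Of 14 other inhibitors of JAK-STAT signalling, 6 rose and 1 fell (median log2 fold change 0.11), where 17.2% of all tested genes rose and 14.3% fell. The gene that fell was Socs2, an inhibitor that restrains growth hormone signalling through STAT5. Its FPKM was 10.1, 10.2 and 11.6 in the BPVB libraries, against 21.5, 19.97 and 19.4 in the sham libraries, a log2 fold change of -0.90 (standard error 0.07, adjusted p = 2.4e-05, limma). Socs1, which is induced by interferons, went the other way, with 4.28, 3.90 and 5.12 against 2.90, 2.94 and 2.93 FPKM (log2 fold change 0.52, adjusted p = 0.0069). The call of Socs1 was lost with limma-voom (adjusted p = 0.066). Socs7 rose by 0.27 (adjusted p = 0.035), a call that held in only 1 of the 6 fits with a library omitted, and Socs4, Socs5 and Socs6 did not pass the threshold. Ptpn6, the phosphatase SHP-1 of blood cells, rose by 1.00 (adjusted p = 0.0023), and Ptpn1 by 0.33 (adjusted p = 0.014). The number of called genes fell from 7 to 4 without BPVB replicate 2 and also without sham replicate 1.
In a list of 6 growth hormone and STAT5 genes, to which Socs2 also belongs, 4 were tested, 0 rose and 2 fell. Besides Socs2 these were the receptor gene Ghr (log2 fold change -0.25, standard error 0.04, adjusted p = 0.0025). Igf1 had 20.8 ± 0.471 FPKM in the BPVB group and 20.8 ± 0.487 in the sham group (SD, n = 3 each), a log2 fold change of 0.00 (standard error 0.05). The prolactin receptor gene Prlr, under the filter on low expression, had 45, 72 and 45 fragments in the BPVB libraries, against 15, 13 and 12 in the sham libraries. It was called higher with limma-voom (log2 fold change 1.72, adjusted p = 0.014), which gave 1 higher and 2 lower genes in this list.

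Other genes known as targets of STAT3 moved in both directions. Of 21 such genes, 10 rose and 4 fell, where 17.2% of all tested genes rose and 14.3% fell. The median log2 fold change was 0.18. The 2 with the largest falls were early-response transcription factor genes. Fos had an FPKM of 59.6, 59.5 and 58.5 in the BPVB libraries, against 196, 193 and 198 in the sham libraries (log2 fold change -1.72, standard error 0.03, adjusted p = 1.7e-09, limma). Junb had 62.5, 61.6 and 68.3 FPKM against 189, 185 and 181 (log2 fold change -1.52, standard error 0.04, adjusted p = 5.0e-08). Irf1 fell by 0.20 on the log2 scale and Steap4 by 0.19, and neither call held in all fits with 1 library omitted.
On the other side, the monocyte chemokine gene Ccl2 rose by 1.02 (adjusted p = 4.5e-04), the survival and mitosis gene Birc5 by 0.98 (adjusted p = 6.4e-04) and Cebpb by 0.83 (adjusted p = 7.9e-05). Timp1, an inhibitor of matrix metalloproteinases, rose from 47.2 ± 2.42 to 82.2 ± 5.43 FPKM (SD, n = 3 each; log2 fold change 0.79, adjusted p = 1.2e-05). Lcn2, the lipocalin that is often taken as a marker of the acute-phase response, had 23.7, 25.8 and 23.0 FPKM in the BPVB libraries, against 22.2, 25.4 and 25.5 in the sham libraries (log2 fold change -0.01, standard error 0.07). Bcl3 did not pass the threshold (log2 fold change 0.24, standard error 0.17).

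The relatives of the 10 genes also differed in direction. Of 13 relatives, 9 were tested, 4 rose and 1 fell. Cebpa, the C/EBP gene of differentiated liver, fat, lung and myeloid cells, had 6.03, 5.87 and 5.41 FPKM in the BPVB libraries, against 1.62, 2.38 and 2.28 in the sham libraries (log2 fold change 1.29, standard error 0.13, adjusted p = 1.1e-04, limma). Cebpb had 39.9, 36.8 and 34.8 FPKM against 19.4, 23.3 and 19.4, a ratio of 1.79 beside the 1.76 of Cebpd. Cebpg rose by 0.33 and Ddit3 by 0.28, whereas Cebpe, at 0 to 12 fragments per library, did not pass the threshold (log2 fold change 0.11, standard error 0.30). Pim3, the relative of Pim1, had 26.2, 22.3 and 23.8 FPKM in the BPVB libraries, against 39.3, 37.3 and 39.5 in the sham libraries, and fell by 0.67 on the log2 scale (standard error 0.06, adjusted p = 5.5e-05). Chit1, a chitinase related to Chi3l1, did not pass the threshold (log2 fold change -0.35, standard error 0.17).

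**Figure D3:**
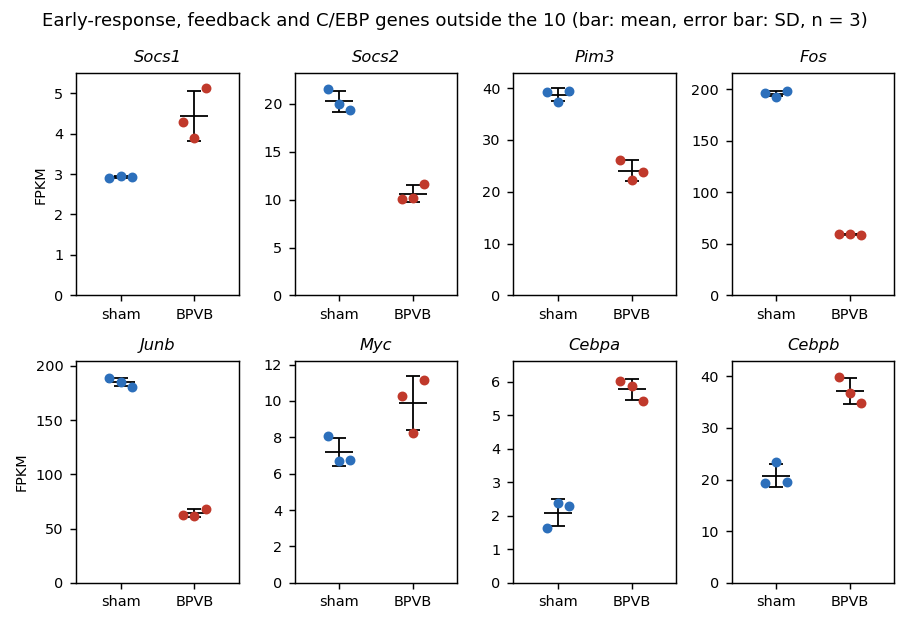
FPKM (linear axes from 0, each with its own scale) of 8 feedback, early-response and C/EBP genes outside the 10 in each library, with points for libraries, a bar for the mean and an error bar for the SD (n = 3 rats per group). Socs2, Pim3, Fos and Junb were lower in all BPVB libraries than in any sham library, and Socs1, Myc, Cebpa and Cebpb were higher.

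The genes for acute-phase proteins beyond Hp, Lbp and A2m rose in part. The list held 19 genes that go up in the acute phase, for plasma proteins, the receptor Cd14 and the intracellular metallothioneins Mt1 and Mt2A. Of these, 10 rose and 0 fell, where 17.2% of all tested genes rose and 14.3% fell. Their median log2 fold change was 0.58. The list was chosen with earlier results of these data known, so nothing is read from this count. Cp, which encodes the copper-carrying ferroxidase ceruloplasmin, had an FPKM of 45.6, 45.4 and 45.9 in the BPVB libraries, against 18.5, 16.9 and 19.0 in the sham libraries (log2 fold change 1.31, standard error 0.05, adjusted p = 3.8e-07, limma). The metallothionein gene Mt2A rose by 1.18 (adjusted p = 2.2e-06), the complement gene C3 by 1.06 (adjusted p = 2.9e-04) and the protease inhibitor gene Serpina3n by 0.79 (adjusted p = 0.0039). Cd14, the partner of Lbp, rose by 0.58 (adjusted p = 5.1e-04). Hamp, the gene of the iron hormone hepcidin, was the highest of the list, with 676 ± 46.2 FPKM against 580 ± 13.3 (SD, n = 3 each; log2 fold change 0.22, adjusted p = 0.0063).
Among genes of mainly hepatic proteins, the fibrinogen chain gene Fgg rose by 0.93 (adjusted p = 0.026, limma) and the antitrypsin gene Serpina1 by 0.64 (adjusted p = 0.014), whereas Crp, Orm1 and Hpx did not pass the threshold. The call of Fgg was lost without BPVB replicate 2 or 3, without sham replicate 1 and with no filter on low values. Crp had 9, 15 and 8 fragments in the BPVB libraries, against 11, 9 and 25 in the sham libraries, and the haemopexin gene Hpx had a log2 fold change of 0.03 (standard error 0.13).
Of 6 genes for plasma proteins that go down in the acute phase, 4 rose and 0 fell, with a median log2 fold change of 0.62. The retinol carrier gene Rbp4 rose from 7.76 ± 0.722 to 17.4 ± 1.59 FPKM and the transferrin gene Tf from 42.8 ± 0.968 to 79.3 ± 2.87 FPKM (SD, n = 3 each). The albumin gene Alb rose by 0.62 on the log2 scale (adjusted p = 2.1e-05, limma) and Ahsg by 0.62 (adjusted p = 0.048). Apoa1 (log2 fold change -0.26, standard error 0.17) and Ttr (0.22, standard error 0.15) did not pass the threshold. The call of Ahsg was lost without BPVB replicate 1 or 2 and without sham replicate 1 or 2, and also with a pseudocount of 0.1, with no filter on low values, with median-of-ratios scaling and with the replicate block, while Ttr passed the threshold without sham replicate 1.

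Glucocorticoids raise several of these genes as well. Of 9 glucocorticoid receptor target genes, 3 rose and 5 fell, where 17.2% of all tested genes rose and 14.3% fell. The median log2 fold change was -0.24. On the log2 scale Zbtb16 fell by 0.88 (adjusted p = 3.8e-06, limma), Klf9 fell by 0.63 and the clock gene Per1 fell by 0.62, whereas the kinase gene Sgk1 rose by 0.64 (adjusted p = 9.4e-05), Ddit4 by 0.59 and Nfkbia by 0.45. Fkbp5 had a log2 fold change of 0.11 (standard error 0.08).

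Outside the 10 genes, 109 genes of the related lists had a RefSeq promoter window, and 12 of them held the motif TTCNNNGAA. Of all windows, 7.67% held it. The 8 that passed the test are shown with the matched letters, to set them beside the 4 matches of Cish.
Socs1: TTCAGGGAA
Serpina3n: TTCCCAGAA
Hamp: TTCTTGGAA
Psmb8: TTCCCAGAA
Icam1: TTCCGGGAA
Irf1: TTCCCCGAA
Steap4: TTCCCGGAA
Klf9: TTCTGCGAA
Of these, the first 5 genes rose and the last 3 fell. Fga, Fgb, Itih4 and Cebpe also held a match and did not pass the threshold. The match of Fga, TTCCTGGAA, has the same letters as the first match of Cish. The match of Hamp has the same letters as the second match of Cish, and that of Icam1 the same as the fourth, although Hamp and Icam1 rose and Cish was lower in the BPVB veins.

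Markers of cells other than those of the vein wall moved with the groups. The summed FPKM of 7 alveolar type 2 cell markers was 538 to 587 in the BPVB libraries, against 59.9 to 61.8 in the sham libraries, and 7 of 7 rose. Lung epithelium is a known source of Hp, Lbp and Chi3l1. Of the airway markers, Scgb1a1 rose, Dnah5 did not pass the threshold (log2 fold change 0.01, standard error 0.14), and Scgb3a2 and Foxj1 were at or near 0 in all libraries. The 6 macrophage markers found in the table all rose, with a sum of 652 to 675 FPKM against 209 to 215. Most of this sum was Lyz2, which alveolar type 2 cells also express, and the other 5 summed to 68.6 to 77.9 FPKM against 47.7 to 49.9, a ratio of 1.53. Of 5 adipocyte markers, 4 rose (51.2 to 57.1 FPKM against 14.8 to 17.0). Of 9 neutrophil markers, 7 were tested, 0 rose and 4 fell (6.73 to 10.7 FPKM against 21.0 to 22.9), and Elane and Ltf were at or near 0. For 7 hepatocyte markers the sum was 54.7 to 57.4 FPKM against 30.2 to 38.3, and 4 rose, of which Cyp2e1 rose the most. Serpina1, Alb, Ttr, Apoa1 and Ahsg of this list are also counted in the acute-phase lists above. The part of these cells in the levels of the 10 genes was not tested.
The markers of the vein itself were abundant in both groups. The sums of the smooth muscle markers (3796 to 3843 FPKM in the BPVB libraries, 4129 to 4209 in the sham libraries) and of the endothelial markers (805 to 816 against 890.0 to 894) were slightly lower in the BPVB group. The sum of 4 fibroblast markers was slightly higher, at 2226 to 2241 FPKM against 2117 to 2129, and 2 of them rose and 2 fell. The sum of 5 myocardial markers was 9361 to 9728 FPKM against 12890 to 13180, with 2 of them (Actn2 and Nppa) higher and 3 (Myh6, Myl7 and Tnnt2) lower by the test.

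**Figure D4:**
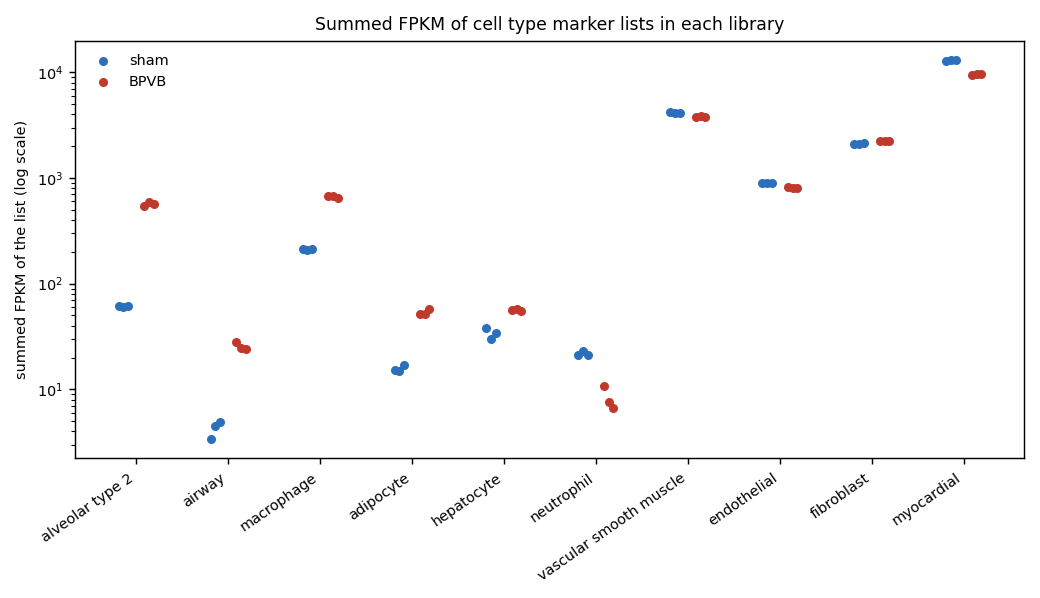
Summed FPKM (log axis) of 10 cell type marker lists (x axis) in each of the 6 libraries, with 1 point per library. The alveolar type 2, airway, macrophage, adipocyte, hepatocyte and fibroblast sums were higher in every BPVB library than in any sham library, the airway sum through Scgb1a1 and the macrophage sum mostly through Lyz2, and the other sums were lower. The smooth muscle, endothelial, fibroblast and myocardial sums were the highest in both groups.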

How the data were processed

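Bulk RNA-seq of the PVs of 3 BPVB and 3 sham-operated rats was analysed. Per the paper's methods, the authors used fastp for trimming, HISAT for mapping and HTSeq-count for counting, and the deposited table gives the FPKM of each gene in each rat. The submitters' processing notes instead list HISAT2 2.0.5, StringTie 1.3.3b, featureCounts 1.5.0-p3 and DESeq2 1.20.0. The build, annotation and strand setting are not given in the sources used here, so that reads of overlapping genes cannot be told apart. No genome coordinates were used apart from the RefSeq promoter window.

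Fragments were recovered from the whole-number steps of the FPKM within each gene, with a tolerance of 1e-04, for 100.0% of genes, as the smallest whole numbers that the values allow. They served for depth, for genes with few fragments and for 1 alternative. Groups were compared with limma 3.58.1 in R 4.3.3 (trend on mean expression, two-sided), and the procedure was tested on simulated data. Exact intervals are binomial (Clopper-Pearson). Python 3.11.15, pandas 2.3.3 and scipy 1.17.1 were used for other steps. With 3 rats per group, no exact permutation test of a single gene can reach a p under 0.1, and none was run.

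The 10 genes and all lists were chosen with earlier results of these data known. Named genes are the 10, up to 3 of the called genes per list and direction with the largest changes, genes that define a list, and 3 genes nearest in profile. Alb, Cd14, Hamp, Steap4, Ddit3, Chit1, Mug1, Hpx, Crp, Orm1, Socs7, Clcf1, Prlr, Cebpe, Lyz2, Fgg, Serpina1, Apoa1, Ttr, Il1b, Tnf, Tyk2, Jak3 and genes named for a promoter motif were chosen after their values were seen. Alternatives were pseudocounts of 0.1 and 1, other filters, median-of-ratios scaling, a replicate block, leaving out each library, and limma-voom on the recovered fragments (at least 10 per gene), the last chosen after seeing the data. A gene and the list named for it are not reported here.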

Additional observations from a re-analysis of the deposited data

How the results depend on the processing

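The number of DEGs (called, with an absolute log2 fold change above 1) was 496 and moved to 901 with a pseudocount of 0.1, 325 with a pseudocount of 1 and 1132 with limma-voom on the recovered fragments. The count of called IL-6 family ligands, 1, was 0 with a filter at a mean FPKM of 1, where Il6 is removed, and lay between 0 and 2 with a library left out. That of the JAK-STAT inhibitors, 7, lay between 4 and 6 with a library left out. For the other changes of these counts the cause was not tested. Of 9 of the 10 genes, 7 were higher and 2 lower under all alternatives, and A2m, which entered the fit without a filter and in limma-voom, was higher there. Socs3 had a log2 fold change of -1.12 with a pseudocount of 1 and -1.24 with limma-voom. Of the 1297 values of 100 called list genes under the alternatives, 63 in 15 genes lost their call and none changed sign.

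The numbers of the libraries were also used as a replicate block, although same-numbered libraries shared little: their deviations from the group means correlated at 0.0255, 0.0136 and 0.0153 over 15150 genes, although 6 of 6 libraries correlated best with their own number. With the block, 4539 genes were called in place of 4775, the JAK-STAT inhibitors gave 5 calls in place of 7, and the negative acute-phase proteins 3 in place of 4. Genes with few fragments, such as Il6, Osm, A2m and Crp, are limited by depth.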

Other observations

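The neighbouring NF-kB pathway was read in the same fit. NF-kB is a factor that acts beside C/EBP and STAT3 at many acute-phase promoters. Of 12 of its target genes, 7 rose and 0 fell, where 17.2% of all tested genes rose and 14.3% fell. The median log2 fold change of the list was 0.29. Relb, a subunit of NF-kB, rose by 0.66 (standard error 0.14, adjusted p = 0.0064, limma), the adhesion molecule gene Vcam1 rose by 0.61 (adjusted p = 4.7e-05), the inhibitor gene Nfkbia by 0.45 (adjusted p = 2.8e-05) and the survival gene Birc3 by 0.50 (adjusted p = 0.015). The cytokine genes Il1b (log2 fold change -0.28, standard error 0.12) and Tnf (-0.17, standard error 0.14) did not pass the threshold.

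The mean profile of the 9 tested genes of the 10, centred on log2(FPKM + 0.5) over the 6 libraries, was compared with that of 12148 other genes that averaged 1 FPKM or more. The nearest were Furin (root mean square difference 0.014), Fam53c (0.015) and Rrad (0.016). Their log2 fold changes were all 0.27, so the likeness is mostly that of the difference between the groups.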
